A study of Mus musculus with 20 samples.

Results

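Gene expression was compared between the vehicle-injected mice of litter 1 and those of litter 5, which are 8 of the 20 mice of the study. They were taken by their litter and treatment labels, and none of them carried a graft. In litter 1, mice 42 and 45 were ASO-Veh and mice 61 and 62 were WT-Veh. In litter 5, mouse 68 was ASO-Veh and mice 64, 66 and 67 were WT-Veh. ASO mice over-express wild-type human α-synuclein under the PDGF-β promoter (line D), and WT mice are their littermates on the same C57B6/J background. All 8 mice are labelled 12 months of age, all had received saline into the striatum, and all had gone through behavioral tests before the dorsal striatum was dissected. RNA of each striatum was hybridized to 1 array, so each mouse is a replicate and nothing was pooled. A mouse cannot be told apart from its dissection and RNA extraction, because each mouse gave 1 sample. Each side of the comparison is 1 litter, so the mice are replicated and the litters are not.

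The striatum is built mainly from GABAergic spiny projection neurons, which carry either the D1 or the D2 dopamine receptor. It lies under the cortex, beside the septum and against the lateral ventricle, whose wall is lined by ciliated ependymal cells and whose choroid plexus secretes cerebrospinal fluid. Dissected blocks of striatum can therefore carry different amounts of neighboring tissue, and each such tissue has marker genes of its own. In bulk samples, fewer cells of a type and less RNA per cell cannot be told apart.

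The markers of spiny neurons were high in all 8 arrays. Rgs9, a brake on dopamine receptor signaling, lay between 11.32 and 11.80 log2 units, and Pde10a, the striatal phosphodiesterase, between 11.02 and 11.54. The RNA integrity numbers on the labels ran from 9.2 to 9.7. Pairs of arrays within litter 1 had correlations of 0.993 to 0.996 across all rows, against 0.991 to 0.995 for pairs within litter 5, and pairs between the litters had correlations of 0.989 to 0.996. Sex labels were at odds with the sex genes in 3 of the 8 mice, all of litter 1. In litter 1 the ASO-Veh mouse 45 and the WT-Veh mice 61 and 62 are labelled male, but Xist, which is expressed from the inactive X chromosome of females, was at 12.05, 12.06 and 12.16 log2 units in them. In litter 5 the labels and the genes matched, with WT-Veh mouse 64 as the only mouse of the male pattern. Whether the litter labels of mice 45, 61 and 62 hold was not tested.

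Litter 1 against litter 5 was tested with limma on all 23521 rows that carried a single gene symbol, with genotype as a covariate. No row passed an adjusted p of 0.05, 0 percent of those tested, and the smallest adjusted p was 0.997. At an unadjusted p under 0.05 there were 878 rows, 3.73 percent, where a uniform p would give 1176.05. Of these, 477 were higher in litter 1 (2.03 percent of all rows) and 401 were lower (1.7 percent). The middle of the distribution lay at -0.00091 log2 units, and its 5th and 95th percentiles were -0.18 and 0.18. The median half-width of the 95 percent intervals was 0.21, and the whole interval lay within 0.5 log2 units of 0 for 92.5 percent of the rows and within 1 for 99.6 percent. Differences of over 1 log2 unit were seen in 5 rows, namely Ttr, Rnu3a, Xist, Eif2s3y and Uty.

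**Figure D1:**
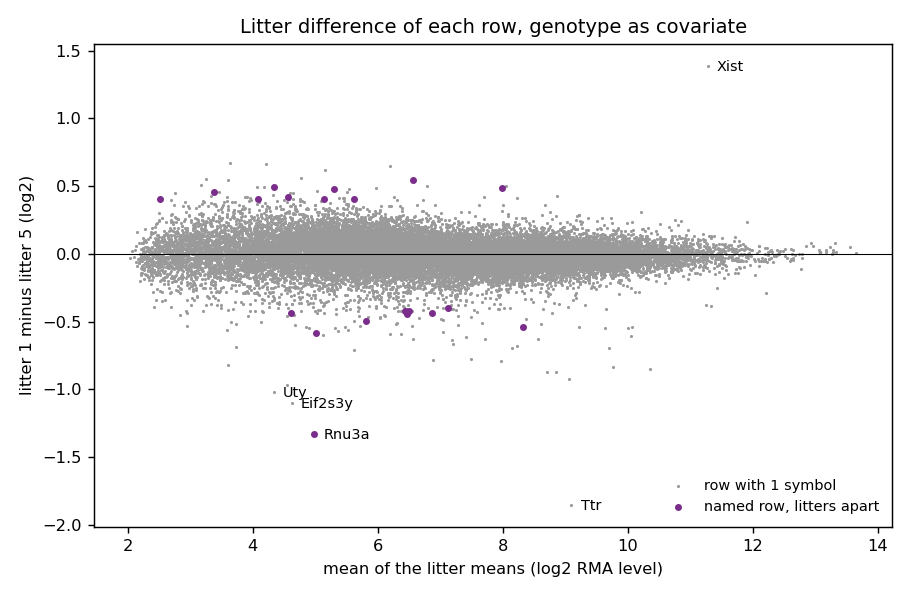
Difference between litter 1 and litter 5 (log2, genotype as covariate, vertical axis) against the mean level of the row (log2, horizontal axis), with 1 point per row. The 5 rows over 1 log2 unit carry their names, and the 20 rows named because the litters did not overlap are in purple.

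Spread within the litters was unequal. The median SD of a row was 0.11 log2 units within litter 1 and 0.13 within litter 5 (n = 4 mice each), and the SD was larger in litter 5 in 61.1 percent of the rows. Ttr, which encodes the thyroid hormone carrier transthyretin and is a leading product of the choroid plexus, had the largest litter difference of all rows. Its levels were 8.35, 7.82, 7.74 and 8.24 in mice 42, 45, 61 and 62 of litter 1, against 12.78, 7.96, 11.75 and 8.15 in mice 64, 66, 67 and 68 of litter 5. Thus 2 mice of litter 5 were high and the other 2 lay among the mice of litter 1. The fitted difference was -1.85 log2 units with an adjusted p of 0.997 (limma), and it was -0.02 without mice 64 and 67. Here and below, these mice were left out after their values were seen, so the values without them are a description and no test.

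The litters did not overlap in 643 rows, 2.73 percent of those tested, with all mice of litter 1 above litter 5 in 317 (1.35 percent) and all below in 326 (1.39 percent). Rows with a difference of at least 0.4 log2 units and litters apart numbered 10 higher and 19 lower in litter 1, and the 10 of smallest p in each direction are described here. None passed the test, and each had an adjusted p of 0.997 (limma). Among the lower rows were 2 neighboring microRNA genes on chromosome 16, Mirlet7c-1 and Mir99a. MicroRNAs guide the silencing of messenger RNAs that pair with their seed, and the let-7 family is known for its rise as neural precursors mature. The mature strands are shown because both genes are among the named rows and lie close together in the genome. They are taken from RefSeq (GRCm38.p6, plus strand), with the seed, bases 2 to 8, in capitals.
let-7c-5p, chr16:77599672-77599693: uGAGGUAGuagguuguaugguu
miR-99a-5p, chr16:77598940-77598961: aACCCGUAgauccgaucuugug
miR-125b-5p of Mir125b-2, chr16:77646279-77646300: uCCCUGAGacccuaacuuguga
The seeds differ from each other. The array rows are annotated by gene and do not tell the hairpin from the mature RNA.

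Mirlet7c-1 was at 5.70, 5.77, 5.51 and 5.37 log2 units in mice 42, 45, 61 and 62 of litter 1, against 6.04, 5.78, 6.15 and 6.14 in mice 64, 66, 67 and 68 of litter 5. The gap between the litters was thus very small, since mouse 45 and mouse 66 were almost level. The fitted difference was -0.50 ± 0.10 (SE). Mir99a was at 6.52, 6.60, 6.83 and 6.54 in litter 1, against 7.20, 6.94, 7.32 and 6.95 in litter 5, with a difference of -0.44 ± 0.10. Mir125b-2, which lies on the same stretch of chromosome 16, had low levels that overlapped, at 2.96, 2.89, 2.89 and 3.18 in litter 1 and 3.21, 2.97, 2.73 and 3.14 in litter 5.

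The lower row with the largest difference was Rnu3a, a U3 small nucleolar RNA that takes part in the processing of ribosomal RNA. It was at 4.65, 4.50, 4.27 and 3.94 in mice 42, 45, 61 and 62 of litter 1, against 5.83, 4.77, 6.44 and 5.45 in mice 64, 66, 67 and 68 of litter 5. The difference was -1.33 ± 0.32, and -0.77 without mice 64 and 67. Tm4sf1, a membrane protein of endothelial and other cells, was at 8.13, 8.31, 8.06 and 7.80 in litter 1 and at 8.90, 8.40, 8.38 and 8.60 in litter 5. Id3, which blocks DNA binding by basic helix-loop-helix factors, was at 6.85, 7.23, 6.90 and 6.76 in litter 1 and at 7.35, 7.26, 7.42 and 7.25 in litter 5. For Id3, mouse 45 lay close to the mice of litter 5 and the other 3 well below them. The remaining lower rows were Zfp119a (-0.58), Lrrc74b (-0.44), the odorant receptor gene Olfr524 (-0.43), Abracl (-0.42) and Myb, a transcription factor of blood precursors (-0.42).

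Otof was the brightest of the higher rows. It encodes otoferlin, the calcium sensor for vesicle release in inner hair cells, and was at 8.07, 8.16, 8.17 and 8.47 in mice 42, 45, 61 and 62 of litter 1, against 7.74, 8.07, 7.60 and 7.68 in mice 64, 66, 67 and 68 of litter 5. Mouse 66 of litter 5 was level with mouse 42 of litter 1 to 2 decimals, and the fitted difference was 0.49 ± 0.12. Gm7736, a predicted gene, was tight in litter 1 at 6.80, 6.83, 6.85 and 6.88 and wide in litter 5 at 5.84, 6.75, 6.09 and 6.45. The other 8 higher rows had differences of 0.40 to 0.49 and were dim, with litter 1 means of 2.73 to 5.85 log2 units. They were the predicted genes Gm16506, Gm5662, Gm5779 and Gm9241, the uncharacterized genes 4932414J04Rik and 4931440J10Rik, and the odorant receptor genes Olfr1454 and Olfr875.

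**Figure D2:**
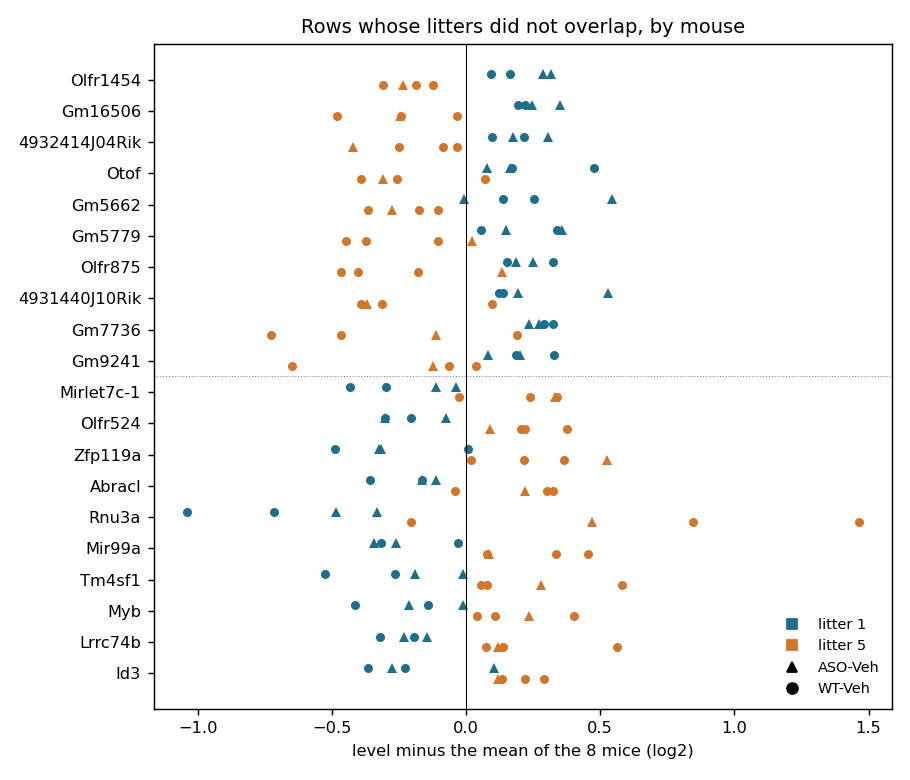
Level of each mouse minus the mean of the 8 mice (log2, horizontal axis) for the 20 rows named because the litters did not overlap, with litter 1 drawn above litter 5 within each row. The upper 10 rows were higher and the lower 10 lower in litter 1, and Rnu3a has the widest spread within litter 5.

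Lists of marker and pathway genes were described by their medians and counts, beside a median of -0.00091 and 3.73 percent at an unadjusted p under 0.05 over all rows. In none of the 44 lists did a member pass the adjusted test, and in none did the list means of the litters separate. The medians ran from -0.29 to 0.05, and 38 lists had a median within 0.1 log2 units of 0. The list of shared spiny neuron genes had a median of 0.03, with 0 of 17 rows at an unadjusted p under 0.05. Astrocyte genes had a median of -0.03 with 0 of 14, microglia genes -0.08 with 0 higher and 1 lower of 17, and myelin genes -0.02 with 0 higher and 1 lower of 17. The list of heat shock proteins had a median of -0.03 with 0 of 26, and that of circadian clock genes -0.01 with 1 higher and 0 lower of 19.

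Among the lists farthest from 0 were those of the ventricle. Choroid plexus genes had a median of -0.29, with 1 of 19 rows positive and 0 higher and 2 lower rows at an unadjusted p under 0.05. Without mice 64 and 67 the median was -0.05. Cldn2, a tight junction protein of choroid plexus epithelium, was at 4.90, 4.55, 4.89 and 4.88 in mice 42, 45, 61 and 62 of litter 1, against 5.43, 5.24, 5.09 and 4.97 in mice 64, 66, 67 and 68 of litter 5, a difference of -0.33. The litters did not overlap for this gene, and mouse 64 was the highest. The other leading members were Col8a1 (-0.32), the BMP and Wnt antagonist Sostdc1 (-0.38) and the lipopolysaccharide-binding protein Lbp (-0.64).

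Genes of ependymal cilia had a median of -0.26, with 1 higher and 5 lower rows of 17 at an unadjusted p under 0.05, and -0.04 without mice 64 and 67. Cfap126, a protein of motile cilia, was at 5.54, 5.47, 5.50 and 5.46 in mice 42, 45, 61 and 62 of litter 1, against 6.20, 5.68, 5.77 and 5.86 in mice 64, 66, 67 and 68 of litter 5 (difference -0.39). Spag16, of the central pair of the ciliary axoneme, and the adenylate kinase Ak7 differed by -0.33 and -0.49. Spag17, also of the central pair, ran the other way and was at 4.96, 4.82, 4.77 and 4.48 in litter 1 and at 4.40, 4.42, 4.21 and 4.32 in litter 5 (difference 0.39). Members of this list thus lay apart in both directions. Mouse 64 was the highest of the 8 mice in 16 of the 17 rows of this list and in 17 of the 19 rows of the choroid plexus list, and mouse 62 was the lowest in 11 and in 9.

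Small nucleolar RNAs, which guide the chemical modification of ribosomal RNA, had a median of -0.18 with 0 higher and 10 lower of 75 rows at an unadjusted p under 0.05, against 2.03 and 1.7 percent over all rows. Snora21 was at 9.99, 9.96, 9.57 and 9.58 in mice 42, 45, 61 and 62 of litter 1, against 10.47, 9.89, 10.66 and 10.29 in mice 64, 66, 67 and 68 of litter 5 (difference -0.61), so that mouse 66 lay among the mice of litter 1. Snora28 (-0.41), Snord111 (-0.35) and Snord92 (-0.29) followed. Without mice 64 and 67 the list median was 0.02. Mouse 67 was the highest of the 8 in 42 of the 75 rows and mouse 62 the lowest in 33, and these mice also had the highest and the lowest RNA integrity number, 9.7 and 9.2. The part of RNA integrity in this list was not tested.

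The list of 11 septal rows had a median of -0.15, which was 0.05 without mouse 62. That mouse was the lowest in all 11 rows, so this change is a description and no test. Met, a receptor tyrosine kinase on this list, differed by -0.41, and the Zic genes are given below. Oligodendrocyte progenitor genes had a median of -0.11 with 0 higher and 2 lower of 10, and -0.04 without mice 64 and 67. Their leading members were Enpp6, a marker of newly forming oligodendrocytes (-0.22), the matrix proteoglycan Vcan (-0.17), the growth factor receptor Pdgfra (-0.17) and Gpr17 (-0.10). Cortical glutamatergic genes had a median of 0.03 with 1 higher and 1 lower of 23 rows. Rasgrf2, a Ras exchange factor, was at 9.58, 9.46, 9.54 and 9.40 in mice 42, 45, 61 and 62 of litter 1, against 9.25, 9.24, 9.13 and 9.26 in mice 64, 66, 67 and 68 of litter 5, and the litters did not overlap (difference 0.26). Fezf2, a factor of deep-layer projection neurons, differed by -0.40, Cux2 of upper layers by 0.11 and Emx1 by -0.11. Meningeal and fibroblast genes had a median of -0.10 with 0 higher and 2 lower of 19. Their leading members were the matrix proteoglycan Ogn (-0.53), the IGF-binding protein Igfbp2 (-0.33), the retinoic acid synthesis enzyme Aldh1a2 (-0.34) and Slc47a1 (-0.19). Mouse 68 of litter 5 was the highest of the 8 mice in 12 of the 19 meningeal and fibroblast rows. Its list mean was 0.32 log2 units above that of the 8 mice, and that of mouse 45 of litter 1 was 0.18 above. Mice 42 and 66 stood at -0.15 and -0.17.

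The 511 rows of microRNA genes had a median of -0.0025 with 13 higher and 24 lower rows at an unadjusted p under 0.05. After the pair on chromosome 16 the leading members were Mir130a, at 3.69, 3.91, 4.00 and 4.00 in litter 1 and 3.40, 3.55, 3.50 and 3.65 in litter 5 (difference 0.39), and Mir1839 (-0.38), whose litters overlapped. Genes that differ between C57BL/6 substrains were level between the litters. Nnt, the mitochondrial transhydrogenase, differed by 0.07, the GABA-A receptor subunit Gabra2 by -0.05 and Wdfy1 by -0.07. The 1108 rows of odorant receptor genes, which are dim in brain, had a median of 0.0089 with 56 higher and 36 lower.

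On each of the first 3 principal components of the 8 arrays, the scores of litter 1 and litter 5 overlapped. The first component held 31.1 percent of the variance, the second 15.7 and the third 15.1. On the first, the mice 42, 45, 61 and 62 of litter 1 had scores of -4.91, 0.041, -1.62 and -18.3, against 24, -12.1, 17.7 and -4.74 for the mice 64, 66, 67 and 68 of litter 5. The mice farthest above 0 were both of litter 5, and of the mice farthest below 0, mouse 62 was of litter 1 and mouse 66 of litter 5. The difference of the litter means was -12.4 on the first component (exact permutation test over the 70 splits, two-sided, p = 0.257), 3.06 on the second (exact p = 0.743) and -3.82 on the third (exact p = 0.543), each with an adjusted p of 0.743 over the 3 components. The smallest p such a test can reach with 4 against 4 mice is 0.0286, and 0.0857 after adjustment where a single component separates the litters, so that such a component could not pass 0.05.

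**Figure D3:**
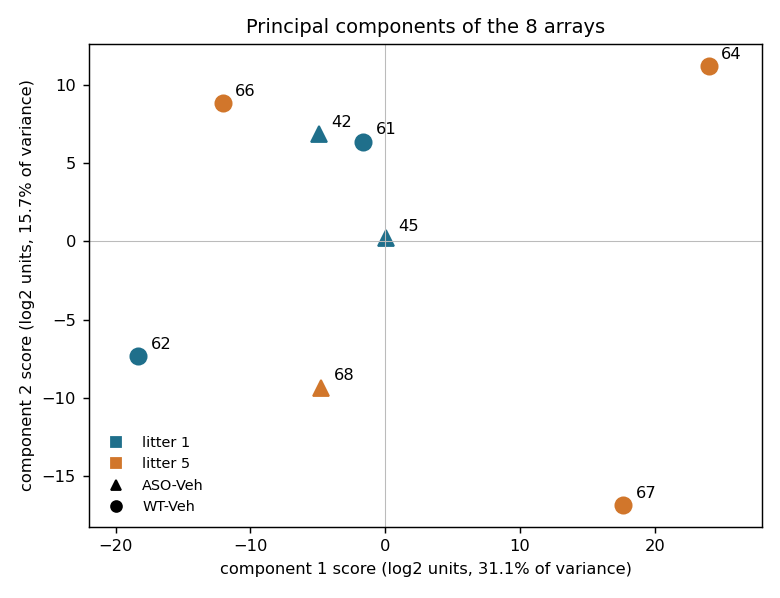
Scores of the 8 arrays on the first (horizontal axis) and second (vertical axis) principal component, in log2 units, by litter (color) and genotype (shape). WT-Veh mouse 62 of litter 1 lies at -18.3 on the first axis, and the WT-Veh mice 64 and 67 of litter 5 lie at 24 and 17.7.

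Departures of single mice were counted next. In each mouse the rows that lay over 1 log2 unit from the mean of the other 7 mice were counted. They numbered 10, 13, 3 and 51 in mice 42, 45, 61 and 62 of litter 1, against 53, 10, 35 and 15 in mice 64, 66, 67 and 68 of litter 5. Of the 152 rows that did so in at least 1 mouse, 127 did so in mouse 62, 64 or 67. In mouse 62 most of these rows were low (10 higher and 41 lower), whereas in mice 64 and 67 most were high (48 higher and 5 lower, and 28 higher and 7 lower). The genes given below were picked for these departures after their values were seen, so their levels are a description with no test.

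**Figure D4:**
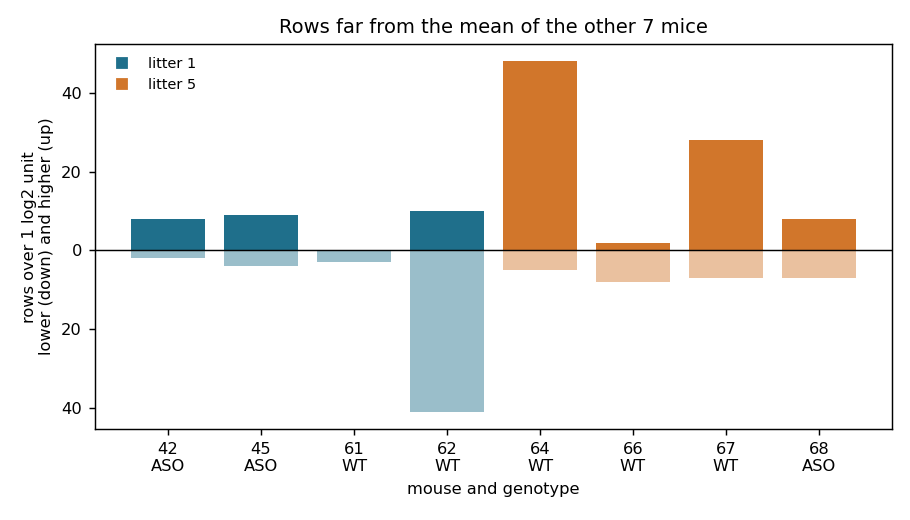
Number of rows over 1 log2 unit above (upward bars) and below (downward, paler bars) the mean of the other 7 mice, for each mouse, with litter 1 on the left and litter 5 on the right. Mouse 62 has 41 low rows and mouse 64 has 48 high rows.

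WT-Veh mouse 64 of litter 5 carried genes of 3 kinds that stood out. The Y-linked genes were at 8.46 (Kdm5d), 8.61 (Uty) and 8.22 (Eif2s3y) log2 units in it, and Xist was at 6.06. In the other 7 mice Kdm5d lay between 3.74 and 4.30 and Xist between 11.73 and 12.20. The litter differences of Xist (1.39), Uty (-1.02), Eif2s3y (-1.10) and Kdm5d (-0.97) rested on this mouse, and without it those of Uty and Kdm5d were 0.03 and 0.0081.

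Choroid plexus genes were the second kind in mouse 64. Kl, the anti-aging hormone Klotho of choroid plexus and kidney, was at 9.58 in mouse 64 and 8.88 in mouse 67, against 7.48 to 8.02 in the other 6 mice. Slc4a5, a bicarbonate transporter of the plexus, was at 6.64 and 6.20 in these mice and at 5.37 to 5.54 in the others. F5, a coagulation factor, was at 6.94 and 6.56, against 5.39 to 6.05. Otx2, the homeobox factor that specifies the plexus, was highest in mouse 64 at 7.32 and lowest in mouse 62 at 5.05. Folr1, a folate receptor, moved little, with 6.66 in mouse 64 and 6.08 in mouse 67 among 6.08 to 6.35 in the others. In the 12 other mice of the study Ttr ran from 7.99 to 12.69 with a median of 12.08, so that mouse 67 lay within their range, and the other 6 vehicle mice, at 7.74 to 8.35, lay close to its lower end or below it.

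Mir204, a microRNA gene known from choroid plexus and retinal pigment epithelium, was also highest in mice 64 (6.04) and 67 (5.53), against 4.10 to 4.97 in the others. Elsewhere in the study Mir204 did not always follow Ttr. Mice 57 and 58 both had Ttr at 12.69, with Mir204 at 4.76 and 5.71. Mouse 73 had Ttr at 7.99 and Mir204 at 5.43. The mature strand of Mir204 is shown because the row was high together with plexus genes in mice 64 and 67.
miR-204-5p, chr19:22750610-22750631: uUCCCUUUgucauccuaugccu
It comes from RefSeq (GRCm38.p6, plus strand), with the seed in capitals.

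Genes of stratified epithelium were the third kind, and those given here were high in mouse 64 alone. The list of keratins and keratin-associated proteins went both ways in this mouse. It was the highest of the 8 in 26 of the 106 rows of that list and the lowest in 22. Krt4, a keratin of the lining of mouth and esophagus, was at 7.80 in mouse 64, against 4.42 to 5.07 in the other 7 and 4.25 to 5.07 in the 12 other mice of the study. The keratins Krt14, Krt17 and Krt6a were at 7.18, 7.48 and 6.40 in mouse 64, with 5.27 to 5.60, 4.74 to 5.35 and 4.30 to 5.44 in the other 7. The desmosome protein Dsp was at 6.96 against 5.21 to 5.57, the surface antigen Psca at 7.57 against 4.90 to 5.23, and annexin A1 (Anxa1) at 7.27 against 4.61 to 5.10. Ltf, the iron-binding lactoferrin of secretions and neutrophils, was at 8.41 against 5.16 to 5.66. All 8 of these genes were highest in mouse 64, and none reached its level in any other mouse of the study. Gh, the pituitary growth hormone, was at 7.51 in this mouse and at 5.58 to 6.25 in the other 7.

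WT-Veh mouse 67 of litter 5 shared the plexus genes and stood apart in small nucleolar RNAs. Snord35b was at 8.65 in mouse 67, against 5.83 to 6.66 in the other 7 mice, and Snord104 at 12.03 against 9.22 to 10.11. Snora73b was at 10.30 against 7.71 to 8.81. In the 12 other mice of the study these RNAs reached at most 7.08, 10.44 and 9.04, so all 3 were highest in mouse 67 among all 20 arrays. Snora15 was at 8.81 in mouse 67 and only 5.83 in mouse 62, which was the lowest of the 8. In the 12 other mice it ran from 7.86 to 9.05. For this RNA mouse 67 thus lay within their range, and mice 61, 62, 66 and 68 lay below it.

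WT-Veh mouse 62 of litter 1 was high in cortical genes and low in genes of the septal list. Slc17a7, the vesicular glutamate transporter of cortical neurons, was at 9.40, 8.73, 7.97 and 10.63 in mice 42, 45, 61 and 62 of litter 1, against 8.86, 7.24, 9.41 and 10.26 in mice 64, 66, 67 and 68 of litter 5. It thus spanned more than 3 log2 units, and both litters held a high and a low mouse. Nr4a2, a nuclear receptor of claustrum, deep cortex and dopamine neurons, was at 9.31 in mouse 62 and 9.18 in mouse 68, against 6.15 to 7.46 in the other 6. Slc30a3, the zinc transporter of glutamatergic vesicles, was at 9.27 and 8.85 in these mice, against 7.16 to 8.05. Tbr1 and Nrn1 were highest in mouse 62, at 7.33 and 8.80, and lowest in mouse 66, at 5.66 and 6.74. Neurod6 was highest in mouse 68 at 6.80 and lowest in mouse 66 at 4.96. Across the whole cortical list mouse 62 was 0.44 and mouse 68 was 0.34 log2 units above the mean of the 8 mice, whereas mice 61 and 66 stood at -0.24 and -0.41. Immediate early genes, which neuronal activity induces and which include Nr4a2, were also highest in mouse 62, in 18 of 26 rows, with a list mean 0.37 above that of the 8 mice. Genes of the circadian clock were highest in mouse 62 in 12 of 19 rows, with a list mean 0.14 above. The part of these groups in the cortical values was not tested.

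Zic1, a zinc finger factor of the septum, was at 7.81 in mouse 62, against 9.50 to 10.21 in the other 7 mice and 9.39 to 10.21 in the 12 other mice of the study. Zic2 was at 7.40 against 8.27 to 9.23, and the cation channel gene Trpc4 at 7.45 against 8.79 to 9.21. Prkcd, a protein kinase C of thalamic and other neurons, was at 6.99 against 8.24 to 9.06. The rows of the list of thalamic neurons went both ways in mouse 62. It was the highest mouse in 4 of the 11 rows of that list and the lowest in 3. Its list mean stood at -0.25 log2 units from that of the 8 mice, the lowest of all, with mouse 66 next at -0.17. Glp1r, the GLP-1 receptor, was at 7.54 against 8.71 to 10.01. Calb2, the calcium buffer calretinin, was lowest in mice 62 (6.40) and 68 (6.72) and highest in mouse 64 (8.95). The dopamine receptor Drd2 of indirect-pathway spiny neurons was highest in mouse 62 at 11.62, with 11.03 to 11.42 in the other 7, and Drd1 of the direct pathway was at 10.52 within a range of 10.06 to 10.57. In the list of shared spiny neuron genes mouse 62 was the highest in 13 of 17 rows, with a list mean 0.23 above that of the 8 mice. Mouse 64 was the lowest in 7 of these rows and mouse 67 in 6, with list means at -0.13 and -0.12.

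Mice 45 and 68, both ASO-Veh, stood apart in fewer rows. In mouse 45 of litter 1 the immunoglobulin light chain row Igkj1 was at 7.53, against 4.91 to 5.54 in the other 7 mice. Jchain, which joins secreted immunoglobulins, was at 5.63 against 3.99 to 4.28. The antiviral genes Oas1g (4.80) and Oasl2 (7.84) were also highest of the 8 in mouse 45. So were the MHC class II genes H2-Ab1 (7.16) and H2-Aa (6.03). In the 12 other mice of the study Igkj1 and Jchain reached at most 5.74 and 4.62, below mouse 45. The antiviral and MHC class II genes given here were within the range of these 12 mice. All of the 12 carried grafts except for the ASO-Veh mice 46 and 47 of litter 3. Oas1g was at 4.11 and 3.77 in mice 46 and 47, and Oasl2 at 7.72 and 7.30. H2-Ab1 was at 6.43 and 6.41 and H2-Aa at 5.34 and 5.02, all below mouse 45. In mouse 68 of litter 5 the secretory proteins Bpifa2, Scgb2b27 and Prol1, known from salivary or lacrimal glands, were at 7.38, 4.83 and 3.45, against 5.29 to 5.47, 2.97 to 3.89 and 2.59 to 2.82 in the other 7. Prl, the pituitary hormone prolactin, was at 7.16 in mouse 45 and 6.92 in mouse 68, against 4.67 to 5.74 in the other 6.

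Pisd-ps3, a transcribed pseudogene, took 2 levels that did not follow the litters. It was at 11.04, 9.04, 8.81 and 11.09 in mice 42, 45, 61 and 62 of litter 1, against 11.18, 11.59, 8.66 and 11.47 in mice 64, 66, 67 and 68 of litter 5. Each litter thus held both levels, and each genotype did too. In the 12 other mice it ran from 9.06 to 11.74.

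**Figure D5:**
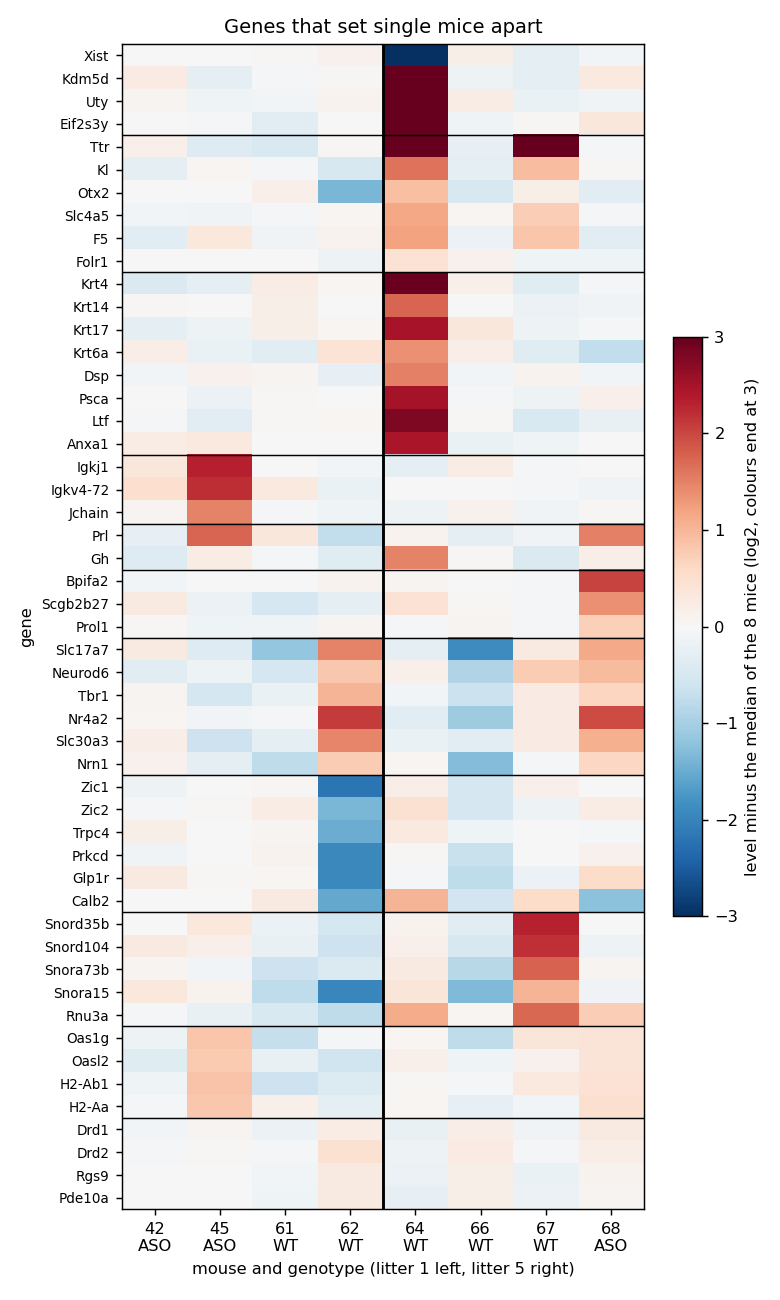
Level of each gene minus the median of the 8 mice (log2, color, ending at 3 in both directions) for genes chosen because single mice stood apart, and for 4 spiny neuron genes at the bottom. Columns are mice, with litter 1 on the left and litter 5 on the right, and mouse 64 carries the Y-linked, plexus and keratin blocks.

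Genotype was tested in the same fit. No row passed an adjusted p of 0.05 between ASO-Veh and WT-Veh mice (0 percent), and 732 rows, 3.11 percent, had an unadjusted p under 0.05 (limma), with 409 higher (1.74 percent) and 323 lower (1.37 percent) in ASO-Veh mice. The difference of the litter effect between the genotypes passed the test in 1 row of 23521, 0.00425 percent, and 865 rows (3.68 percent) had an unadjusted p under 0.05, of which 399 (1.7 percent) were higher and 466 (1.98 percent) lower. That row was Bpifa2, with a litter difference -2.08 ± 0.16 log2 units apart between ASO and WT mice (adjusted p = 0.0184, limma). It rested on mouse 68, the only ASO mouse of litter 5, which had no replicate and was assumed to vary like the other groups. Bpifa2 was at 7.38 in mouse 68, while the ASO mice 42 and 45 of litter 1 were at 5.29 and 5.38. The call was lost with labelled sex as a covariate and when any of the other 7 mice was left out.

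The grafted mice of litters 4 and 6, 9 mice that share none with the litters above, were set beside them. Between litter 4 and litter 6 no row passed the adjusted test (0 percent), and 1716 rows had an unadjusted p under 0.05, 7.3 percent, with 813 higher in litter 4 (3.46 percent) and 903 lower (3.84 percent). The litters did not overlap in 551 rows (2.34 percent). Labelled sex and litter cannot be told apart there, since all mice of litter 4 are labelled female and all of litter 6 male. By the sex genes, WT-NSC mouse 54 of litter 6 had the female pattern, and without it litter and sex by genes could not be told apart either. Rows at an unadjusted p under 0.05 in both comparisons numbered 76, whether or not their directions were the same. They were 8.66 percent of the list for litters 1 and 5, beside 7.3 percent of all rows for litters 4 and 6. Of the list for litters 4 and 6 they were 4.43 percent, beside 3.73 percent of all rows for litters 1 and 5. Among the 20 named rows, Mirlet7c-1 had a difference of -0.54 and Olfr1454 of 0.32 between litters 4 and 6, and Rnu3a one of 0.33, none past the test. The other 17 differences there lay between -0.20 and 0.25.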

How the data were processed

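Striatal RNA of 20 mice was hybridized to Affymetrix Mouse Gene 2.0 ST arrays. The table deposited by the authors holds log2 expression from RMA, run with oligo, in which background is corrected, arrays are brought to a shared distribution and probes are summarized per transcript cluster. Precision is set by the number of mice, and p-values measure the spread between these mice. Of 41345 transcript clusters, the 23521 with a single gene symbol were used without further filtering. The litter difference was fitted in R 4.3.3 by limma 3.58.1 (lmFit and eBayes, 5 residual and 4.33 prior degrees of freedom), with genotype as a covariate and p-values adjusted over all rows (Benjamini-Hochberg, threshold 0.05). Components and summaries used Python 3.11.15 with numpy 2.4.6 and pandas 2.3.3, and plots used matplotlib 3.10.9. The code was tested on simulated data. Rows named in the text were, per direction, up to 10 of smallest p with litters apart and a difference of at least 0.4, up to 4 members of each described list, and the sex and substrain genes. Further genes were chosen after their values were seen. The mice and the gene lists were chosen with earlier results of these data known, and Ighm, listed by mistake with the cortical genes, was removed after its values were seen. Sequences come from RefSeq, which held 428 of the 511 microRNA rows. Alternatives are given in the closing section.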

Additional observations from a re-analysis of the deposited data

Results flagged for a closer look

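Within each litter of 4 mice, the highest or lowest mouse was set against the gap to its nearest neighbor for the 103 named rows and the 3 components, 212 tests in all. Chance marks about 1 group in 20, which would be 10.6, and 38 stood apart. Most of these genes were picked because a mouse departed in them, so the number is no test. The mice concerned were 62 (14 times) and 64 (11 times), then 45 (5), 66, 67 and 68 (2 each), and 42 and 61 (1 each).

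In litter 1, mouse 62 was low for Zic1 (7.81), Zic2 (7.40), Trpc4 (7.45), Prkcd (6.99), Glp1r (7.54), Calb2 (6.40), Met (5.58), Otx2 (5.05), Folr1 (6.08), Ak7 (6.36) and Gabra2 (10.61), and high for Nr4a2 (9.31), Drd2 (11.62) and the third component (16.03). Mouse 45 was high for Jchain (5.63) and Igfbp2 (7.28) and low for Psca (4.90), Cldn2 (4.55) and Cux2 (8.13). Mouse 61 was low for Eif2s3y (3.79), and mouse 42 was high for 4931440J10Rik (5.82).

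In litter 5, mouse 64 was low for Xist (6.06) and high for Kdm5d (8.46), Uty (8.61), Eif2s3y (8.22), Krt4 (7.80), Krt14 (7.18), Dsp (6.96), Psca (7.57), Ltf (8.41), Anxa1 (7.27) and Lrrc74b (7.03). Mouse 66 was high for 4931440J10Rik (5.39) and low for Prkcd (8.24). Mouse 67 was high for Snord35b (8.65) and low for Pisd-ps3 (8.66), and mouse 68 was high for Bpifa2 (7.38) and Prol1 (3.45).

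The litter effect in ASO minus that in WT mice passed the test in Bpifa2, at -2.08 log2 units (adjusted p = 0.0184, limma). It rests on mouse 68, the only ASO mouse of litter 5, whose spread was taken from the other groups. The call was lost with labelled sex as a covariate and when any of the other 7 mice was left out.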

How the results depend on the processing

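The litter comparison had 0 rows past the adjusted threshold under all 24 alternatives run. The 20 rows named for litters apart passed in none of them, and their direction was fixed by that choice. Rows at an unadjusted p under 0.05 numbered 1362 with labelled sex as a covariate, 542 without the 3 mice whose sex genes differ from the label (litter 1 is then mouse 42 alone), 1515 in ASO mice only (litter 5 is then mouse 68 alone), 427 in the more variable rows (fewer rows tested) and 1485 without mice 62, 64 and 67, an alternative chosen after seeing the data like that without 64 and 67. A lone mouse is assumed to vary like the others. Leaving out 1 mouse gave 687 to 1751 (1751 without mouse 66). For the genotype difference of the litter effect, leaving out any mouse that could be left out, or adding labelled sex, gave 0 rows, and 583 to 1672 at an unadjusted p under 0.05 when 1 mouse was left out. It could not be fitted without mouse 68. Litter 4 against litter 6 had 0 to 4 rows (4 without WT-NSC mouse 54, the mouse of litter 6 with the female pattern of sex genes) and 1120 (without ASO-NSC mouse 73) to 2421 at an unadjusted p under 0.05 when 1 mouse was left out, and could not be fitted with labelled sex. The causes were not tested.

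Uncalled differences changed sign in 29 of 1299 values. Without the 3 mice whose sex genes differ from the label, where the value is mouse 42 minus mouse 68, these were Uty (0.19), Ttr (0.20), Nnt (-0.021), Gabra2 (0.033), Wdfy1 (0.12), Col8a1 (0.051), Lbp (0.17), Pdgfra (0.067) and Gpr17 (0.016). With sex taken from the sex genes they were Kdm5d (0.0081) and Uty (0.026), the same values as without mouse 64. In ASO mice only, against mouse 68 alone, they were Uty (0.080), Gabra2 (0.031), Wdfy1 (0.14), Col8a1 (0.0025), Sostdc1 (0.031), Lbp (0.16), Cux2 (-0.021) and Pdgfra (0.089). Without mice 64 and 67 they were Xist (-0.0067) and Wdfy1 (0.054), and without mice 62, 64 and 67 Xist (-0.016), Gabra2 (0.0049), Wdfy1 (0.11), Met (0.13) and Pdgfra (0.048). Leaving out 1 mouse moved Wdfy1 between -0.18 and 0.025, Kdm5d between -1.41 and 0.0081, and Uty between -1.63 and 0.026. The component differences kept their sign in all alternatives. No paired analysis was possible because the mouse numbers are single animals and pair none across litters.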
